A study of Mus musculus with 19 samples.

Results

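The fibrosis glycoproteins and collagen cross-linkers are 9 genes, Fn1, Sparc, Postn, Tnc, Thbs1, Ctgf, Lox, Loxl1 and Loxl2, of 24237 genes measured in epididymal white adipose tissue (eWAT). They were chosen by symbol, and each symbol matched 1 gene of the expression table. Adult male C57Bl6/J mice were fed an LFD or an HFD, each with a normal or a low Mg2+ content, for 17 weeks, and the RNA of whole eWAT was sequenced with 1 library per mouse. The groups were NormMg-LFD (n = 4, replicates 2 to 5), LowMg-LFD (n = 5), NormMg-HFD (n = 5) and LowMg-HFD (n = 5). All mice were wild-type, the labels separate the groups by diet, and mice of each group had insulin and glucose tolerance tests while on the diets. The study reports that LowMg-HFD mice were lighter and had less eWAT than NormMg-HFD mice. It describes effects of the lower weight and of the Mg2+ deficiency as hard to separate. Expression is given as FPKM, read fragments corrected for the length of the transcript and the size of the library, which allows levels to be compared between genes. The study explored what a low blood Mg2+ does to energy and lipid metabolism, and the values below give the levels of these 9 genes on its diets.

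Adipose tissue holds its adipocytes in a fibrous matrix of collagens and glycoproteins, which is rebuilt when the tissue expands, and a dense matrix is a known feature of obese fat pads. Fibronectin (Fn1), SPARC, periostin (Postn), tenascin C (Tnc) and thrombospondin 1 (Thbs1) are secreted glycoproteins that bind collagens, growth factors and cell surface receptors. Connective tissue growth factor (Ctgf) is a matricellular protein of the CCN family and a known target of TGF-beta and of the YAP and TEAD proteins. Lysyl oxidase (Lox) and the lysyl oxidase-like enzymes Loxl1 and Loxl2 oxidise lysines of collagen and elastin, which lets the fibres form covalent cross-links.

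The sequences upstream of the start sites of Sparc, Postn and Tnc are shown because, of the 9 genes, these had an entry among the RefSeq promoters used. They hold the 250 bases before the RefSeq start site (GRCm38.p6), 5' to 3' on the strand of the gene, at chr11:55420081-55420330 (minus strand), chr3:54360857-54361106 (plus strand) and chr4:64047016-64047265 (minus strand). Capitals mark matches to a TATA box (TATAAA) or a GC box (GGGCGG).
Sparc: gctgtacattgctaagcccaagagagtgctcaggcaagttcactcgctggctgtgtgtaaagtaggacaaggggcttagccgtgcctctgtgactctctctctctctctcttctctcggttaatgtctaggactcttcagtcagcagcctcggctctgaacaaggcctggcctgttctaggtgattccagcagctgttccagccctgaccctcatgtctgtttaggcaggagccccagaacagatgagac
Postn: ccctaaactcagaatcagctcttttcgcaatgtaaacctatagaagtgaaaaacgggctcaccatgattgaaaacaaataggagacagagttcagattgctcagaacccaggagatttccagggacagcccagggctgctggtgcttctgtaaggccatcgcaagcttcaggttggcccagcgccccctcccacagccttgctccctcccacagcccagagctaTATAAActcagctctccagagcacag
Tnc: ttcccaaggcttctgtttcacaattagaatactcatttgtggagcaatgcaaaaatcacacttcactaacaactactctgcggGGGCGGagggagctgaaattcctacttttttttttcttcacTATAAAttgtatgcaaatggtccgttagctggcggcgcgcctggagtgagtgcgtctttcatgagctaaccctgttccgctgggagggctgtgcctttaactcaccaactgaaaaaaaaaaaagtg
Only 3 of the 9 genes had an entry among the RefSeq promoters used here. The Postn promoter held TATAAA at -26 to -21 from the start site. In the Tnc promoter, TATAAA lay at -126 to -121 and GGGCGG at -167 to -162. Sparc held no match to the motifs searched, which on both strands were these boxes, the AP-1 motif TGANTCA, the TEAD motif GGAATG and the SMAD motif GTCTAGAC. None of the 3 windows held the last 3 motifs. Among 32851 promoters of 250 bases, 12.4% held TATAAA, 32.7% GGGCGG, 6.75% TGANTCA, 12.6% GGAATG and 0.167% GTCTAGAC. A match is a match of letters and was not tested as a binding site.

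The libraries held between 12986441 and 13027028 reads, of which 86.12% to 90.41% were mapped. Markers of adipocytes were abundant in each group, with a mean of 1262 to 2340 FPKM for Adipoq, the gene of adiponectin. Libraries of 2 mice stood apart by markers of a neighbouring tissue. Exocrine pancreas genes summed to 992.93 FPKM in NormMg-LFD replicate 3 and to 0.36 to 3.41 FPKM in the other 18 mice. Epididymis genes summed to 119 FPKM in LowMg-LFD replicate 4, with Crisp1 at 91.15 FPKM, and to 0 to 3.85 FPKM in the others. The study left out a LowMg-HFD mouse for pancreatic tissue, the labels do not say which, and the 5 LowMg-HFD libraries lay between 0.78 and 2.74 FPKM. All 19 libraries were used, and values without both mice that stood apart are given beside the counts.

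On the NormMg-HFD, 6 of the 8 genes tested were higher than on the NormMg-LFD, which were Fn1, Sparc, Postn, Lox, Loxl1 and Loxl2. Among all 8336 genes tested, 24.6% were higher in this comparison and 37.4% changed in either direction. On the LowMg-HFD, 5 of the 8 genes were lower than on the NormMg-HFD and none was higher, and these were Fn1, Sparc, Postn, Lox and Loxl2. Of these, Fn1, Postn and Loxl2 (3 genes) were called when NormMg-LFD replicate 3, any of NormMg-HFD replicates 2 to 5 or any of LowMg-HFD replicates 3 to 5 was left out, and a fit of only the 2 HFD groups called Fn1, Postn, Loxl1 and Loxl2. Of all genes tested, 12.9% were lower here and 18.5% changed in either direction, shares that were 8.06% and 11.3% without NormMg-HFD replicate 3. Within the low Mg2+ diets, 5 of the 8 genes were higher on the HFD than on the LFD, namely Sparc, Postn, Thbs1, Lox and Loxl1, against 12.4% of all genes higher and 15.9% changed in either direction. Without LowMg-LFD replicate 1, LowMg-HFD replicate 1 or LowMg-HFD replicate 2, the shares at low Mg2+ were 7.35% to 7.96% and 9.67% to 10.5%. Between the LFD groups, 0 of the 8 genes passed the threshold. In that comparison 0 of all 8336 genes (0.0%) passed limma's test adjusted by the Benjamini-Hochberg method, and 547 genes had an unadjusted p under 0.05, none of them among the 8. When any 1 mouse was left out, 338 to 720 genes had an unadjusted p under 0.05 in limma. The log2 fold changes of the 8 genes between the LFD groups lay between -0.52 (Ctgf, adjusted p = 0.823) and 0.14 (Postn, adjusted p = 0.924). Over the alternatives given below, that of Ctgf was -0.83 to -0.15 and that of Postn 0.01 to 0.25. Tnc did not pass the filter on low values and was read from a fit of all 24237 genes without a filter.

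The median log2 fold change of the 8 genes was 0.99 for the HFD at normal Mg2+, where the median of all genes tested was 0.07, and 0.67 at low Mg2+, where that of all genes was 0.10. For low against normal Mg2+ it was -0.52 on the HFD and -0.20 on the LFD, with -0.04 and -0.06 for all genes. Without LowMg-LFD replicate 1, the median of the 8 genes on the LFD was -0.03. Centring each library on its median shifted the fold changes of the HFD down by 0.103 at normal Mg2+ and by 0.11 at low Mg2+, after which the median of the 8 genes was 0.89 and 0.56. With centring, the share of higher genes among all genes called was 50.1% instead of 65.8% for the HFD at normal Mg2+ and 52.8% instead of 78.0% at low Mg2+. For low against normal Mg2+ on the HFD, that share was 43.3% instead of 30.2%. All genes called after centring had the direction given above, and those called for Mg2+ on the HFD were Fn1, Postn and Loxl2. Without the 2 mice that stood apart, 6 genes were higher on the NormMg-HFD than on the NormMg-LFD. On the LowMg-HFD against the LowMg-LFD 5 genes were higher without them, with Loxl2 called and Thbs1 not called, and between the HFD groups 4 were lower, with Sparc not called (adjusted p = 0.0586).

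**Figure D1:**
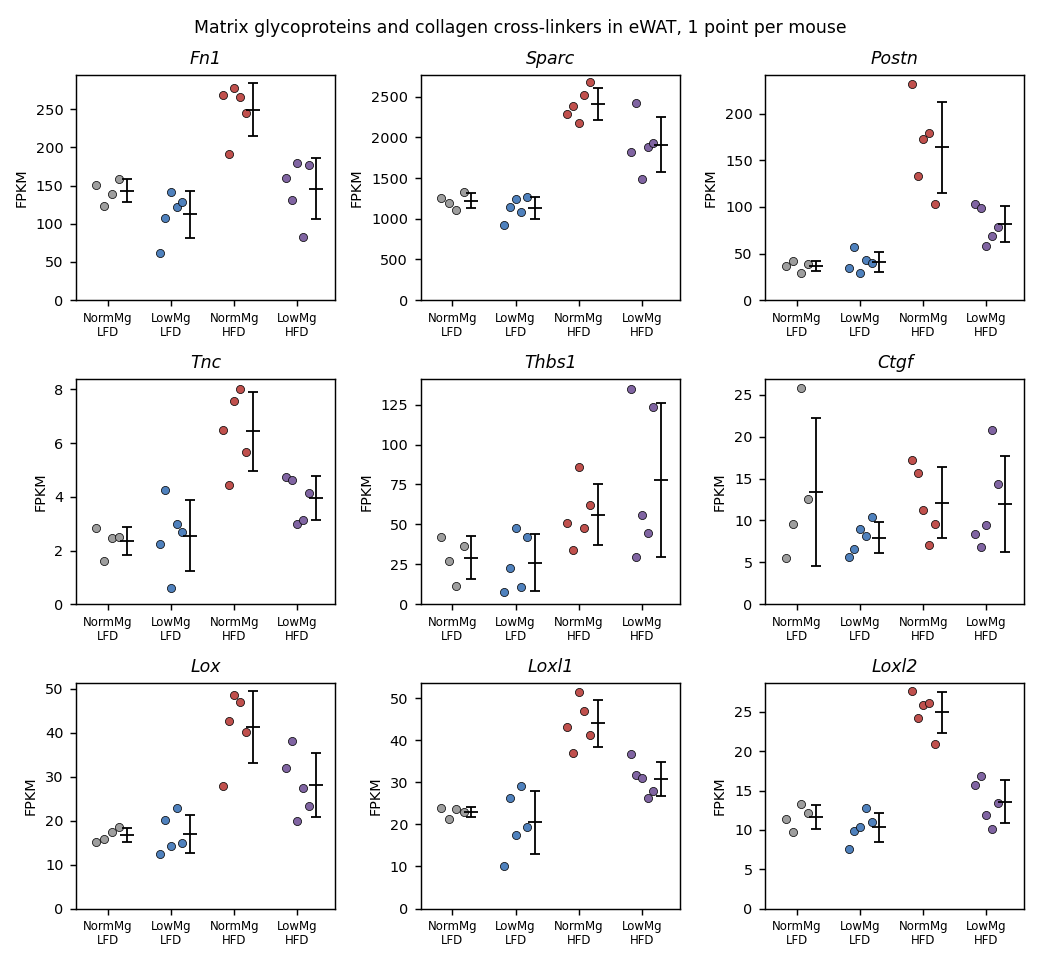
FPKM of each of the 9 genes (y axes, from 0) in the 4 diet groups (x axes), with 1 point per mouse, the mean as a dash and the SD as the bar beside the points. For Fn1, Sparc, Postn, Tnc, Lox, Loxl1 and Loxl2 all 5 NormMg-HFD mice lie above all 4 NormMg-LFD mice, and for Fn1, Loxl1 and Loxl2 all 5 LowMg-HFD mice lie below all 5 NormMg-HFD mice.

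In the values that follow, mice are given in the order of their replicate numbers. Fn1 (ENSMUSG00000026193.15, chr1:71585520-71653200 of GRCm38, minus strand), which encodes fibronectin, had 151.08, 123.64, 139.59 and 158.88 FPKM on the NormMg-LFD and 61.2, 107.7, 142.29, 121.67 and 128.41 FPKM on the LowMg-LFD. On the NormMg-HFD it had 268.25, 190.85, 277.28, 266.2 and 245.06 FPKM, and on the LowMg-HFD 160.47, 131.79, 179.15, 82.4 and 176.42 FPKM. The NormMg-HFD mice were above every mouse of the other groups, and the LowMg-HFD mice overlapped both LFD groups. Fn1 was higher on the NormMg-HFD than on the NormMg-LFD (log2 fold change 0.79 ± 0.22 SE, adjusted p = 0.00923). It was lower on the LowMg-HFD than on the NormMg-HFD (log2 fold change -0.81 ± 0.21, adjusted p = 0.0123), where its mean was 0.585 times as high. Between the low Mg2+ groups the log2 fold change was 0.38 ± 0.21 (adjusted p = 0.244), and 0.57 with an adjusted p of 0.0418 when LowMg-HFD replicate 4, the lowest of its group, was left out. In this whole tissue, fewer cells of a type that makes a transcript and less of that transcript per cell cannot be told apart, which holds for all genes described here.

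Sparc (ENSMUSG00000018593.13, chr11:55394500-55423183, minus strand), a collagen-binding glycoprotein, was by far the most abundant of the 9 genes, with a mean of 1692 FPKM over all mice, at percentile 99.9 of all genes. On the NormMg-LFD it had 1253.27, 1194.47, 1106.84 and 1323.28 FPKM, and on the LowMg-LFD 919.16, 1146.34, 1247.03, 1082.16 and 1265.82 FPKM. On the NormMg-HFD the values were 2282.55, 2389.82, 2175.51, 2523.09 and 2685.08 FPKM, and on the LowMg-HFD 1816.28, 2426.65, 1492.32, 1887.73 and 1937.08 FPKM. Both HFD groups lay above both LFD groups, and LowMg-HFD replicates 1, 3, 4 and 5 were under the lowest NormMg-HFD value. Sparc was higher on the HFD at normal Mg2+ (log2 fold change 0.98 ± 0.12, adjusted p = 5.83e-06) and at low Mg2+ (0.75 ± 0.12, adjusted p = 0.000733). Its decrease on the LowMg-HFD against the NormMg-HFD was the smallest among the 5 genes called and close to the threshold (log2 fold change -0.35 ± 0.12, adjusted p = 0.0437). That call was lost in 18 of 29 alternatives. It was lost when any NormMg-HFD mouse, any LowMg-HFD mouse but replicate 2, NormMg-LFD replicate 2 or 3, or LowMg-LFD replicate 2 was left out, with adjusted p between 0.0515 and 0.130 and log2 fold changes between -0.38 and -0.26.

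Postn (ENSMUSG00000027750.16, chr3:54361109-54391037, plus strand) encodes periostin, a matricellular protein that binds collagen I and fibronectin. It had 36.12, 41.54, 28.65 and 39.1 FPKM on the NormMg-LFD and 34.36, 57.02, 29.36, 43.49 and 39.93 FPKM on the LowMg-LFD. In NormMg-HFD mice Postn had 231.79, 133.38, 172.67, 179.41 and 103.44 FPKM, and on the LowMg-HFD 103.46, 98.42, 58.56, 69.2 and 78.93 FPKM. Postn had the largest log2 fold change of the 8 genes for the HFD at normal Mg2+, with no overlap between groups (2.10 ± 0.22, adjusted p = 1.53e-06, mean 4.52 times as high). At low Mg2+ the groups did not overlap either, and the mean was 2.00 times as high (log2 fold change 0.99 ± 0.21, adjusted p = 0.0035). On the HFD, its mean at low Mg2+ was 0.498 times that at normal Mg2+ (log2 fold change -0.98 ± 0.21, adjusted p = 0.00404). However, LowMg-HFD replicate 1 (103.46 FPKM) and NormMg-HFD replicate 5 (103.44 FPKM) had almost equal values.

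Tnc (ENSMUSG00000028364.15, chr4:63959785-64047015, minus strand), a glycoprotein known from tissue repair, was the lowest of the 9 genes, with a mean of 3.90 FPKM over all mice. It had 2.83, 1.6, 2.47 and 2.49 FPKM on the NormMg-LFD, 2.24, 4.25, 0.62, 2.99 and 2.69 FPKM on the LowMg-LFD, 6.48, 4.43, 7.58, 8.03 and 5.67 FPKM on the NormMg-HFD and 4.76, 4.63, 3.01, 3.15 and 4.16 FPKM on the LowMg-HFD. All NormMg-HFD mice were above all NormMg-LFD mice, and 3 of the 5 LowMg-HFD mice were below all NormMg-HFD mice. In the fit without a filter, where 9.72% of 24237 genes were higher, Tnc was higher on the NormMg-HFD than on the NormMg-LFD (log2 fold change 1.14 ± 0.27, adjusted p = 0.006). Between the HFD groups its log2 fold change was -0.58 ± 0.25 (adjusted p = 0.231, 95% interval -1.11 to -0.06), which did not pass, and at low Mg2+ that of the HFD was 0.56 ± 0.25 (adjusted p = 0.292). At this level, the pseudocount of 1 makes the log2 fold changes smaller than those of the FPKM themselves.

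Thbs1 (ENSMUSG00000040152.8, chr2:118111876-118127133, plus strand) encodes thrombospondin 1, an activator of latent TGF-beta that is also held by platelets. In each group, the values varied more between mice than those of Fn1, Sparc or the cross-linkers, with a coefficient of variation of 34.3% to 69.2%. It had 42.24, 26.93, 11.51 and 36.42 FPKM on the NormMg-LFD and 7.54, 22.99, 47.52, 10.6 and 42.26 FPKM on the LowMg-LFD. NormMg-HFD mice had 51.15, 34.2, 85.68, 47.75 and 62.04 FPKM, and on the LowMg-HFD 134.82, 29.39, 55.79, 44.4 and 123.55 FPKM. The 2 highest values of all mice were those of LowMg-HFD replicates 1 and 5, while the other 3 mice of that group lay within or below the NormMg-HFD range. Between the HFD groups the log2 fold change was 0.29 ± 0.49 (adjusted p = 0.726, 95% interval -0.74 to 1.32), and for the HFD at normal Mg2+ it was 1.00 ± 0.52 (adjusted p = 0.144, over alternatives 0.0346 to 0.394, the lowest with only these groups in the fit). At low Mg2+ Thbs1 was higher on the HFD (1.61 ± 0.49, adjusted p = 0.0314). This call was lost in 9 of 29 alternatives. It was lost when LowMg-HFD replicate 1 or 5 or LowMg-LFD replicate 1 or 4 was left out (adjusted p between 0.0735 and 0.103), when both mice that stood apart were left out (0.0869), without a filter (0.0983), with median centring (0.0528), with quantile normalization (0.0536) and with only the groups compared (0.0867). Among platelet markers, Pf4, which macrophages also express, was at a mean of 59.1 to 97.5 FPKM, and Ppbp, Gp9 and Itga2b were at no more than 3.75 FPKM in any mouse.

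Ctgf (ENSMUSG00000019997.11, chr10:24595442-24598683, plus strand) passed the threshold in none of the comparisons. It had 5.51, 9.61, 25.83 and 12.57 FPKM on the NormMg-LFD and 5.63, 6.63, 9.03, 8.15 and 10.38 FPKM on the LowMg-LFD. With the NormMg-HFD the values were 17.15, 15.63, 11.28, 7.05 and 9.53 FPKM, and on the LowMg-HFD 8.35, 6.8, 9.51, 20.81 and 14.39 FPKM. The 4 groups overlapped, and the highest value of all mice was that of NormMg-LFD replicate 4. The log2 fold change was 0.00 ± 0.35 for the HFD at normal Mg2+ (95% interval -0.73 to 0.73), 0.46 ± 0.33 at low Mg2+ (-0.23 to 1.14) and -0.06 ± 0.33 for Mg2+ on the HFD (-0.75 to 0.63). These intervals include changes as large as that of Lox between the HFD groups, so that a difference of that size was not detectable for Ctgf.

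The 3 cross-linking enzymes each had more than 1.9 times the mean level on the NormMg-HFD than on the NormMg-LFD, with no overlap between the groups. Lox (ENSMUSG00000024529.13, chromosome 18) had 15.11, 15.78, 17.45 and 18.52 FPKM on the NormMg-LFD and 12.5, 20.12, 14.18, 22.92 and 14.99 FPKM on the LowMg-LFD. On the NormMg-HFD it had 27.81, 42.57, 48.67, 46.95 and 40.2 FPKM, and on the LowMg-HFD 32.05, 38.08, 19.85, 27.39 and 23.22 FPKM. The HFD groups overlapped through NormMg-HFD replicate 1, the lowest of its group. Lox was higher on the HFD at normal Mg2+ (log2 fold change 1.23 ± 0.19, adjusted p = 5.59e-05) and at low Mg2+ (0.70 ± 0.18, adjusted p = 0.0137). It was lower on the LowMg-HFD than on the NormMg-HFD (-0.55 ± 0.18, adjusted p = 0.0425), a call lost in 14 of 29 alternatives. Among them were leaving out NormMg-LFD replicate 3, any of NormMg-HFD replicates 2 to 5 or any of LowMg-HFD replicates 3 to 5, with adjusted p between 0.0511 and 0.122.

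Loxl1 (ENSMUSG00000032334.10, chr9:58287738-58313186, minus strand), known for its part in elastic fibres, had 23.9, 21.28, 23.69 and 22.9 FPKM on the NormMg-LFD and 10.22, 26.27, 17.55, 29.18 and 19.32 FPKM on the LowMg-LFD. In NormMg-HFD mice Loxl1 had 43.08, 37.07, 51.55, 46.91 and 41.33 FPKM, and on the LowMg-HFD 36.73, 31.65, 31.11, 26.25 and 28.02 FPKM. Each LowMg-HFD mouse was below each NormMg-HFD mouse, while the LowMg-LFD mice spread widely (coefficient of variation 36.5% against 5.18% on the NormMg-LFD). Loxl1 was higher on the HFD at normal Mg2+ (log2 fold change 0.90 ± 0.20, adjusted p = 0.0014) and at low Mg2+ (0.63 ± 0.19, adjusted p = 0.027), the second of which was lost in 7 of 29 alternatives. These were leaving out LowMg-LFD replicate 1 or 3 or LowMg-HFD replicate 1 or 2 (adjusted p between 0.0523 and 0.074), no filter (0.0783), quantile normalization (0.0535) and only the groups compared (0.106). Between the HFD groups it did not pass (-0.50 ± 0.19, adjusted p = 0.0677), but did without LowMg-LFD replicate 1 or 4, mice that are outside that comparison and enter it through the shared estimate of the spread (adjusted p = 0.0104 and 0.0421). It also passed in the fit of only the 2 HFD groups (adjusted p = 0.0151).

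Loxl2 (ENSMUSG00000034205.16, chr14:69609068-69695834, plus strand), which acts on collagen IV of basement membranes, had 11.38, 9.7, 13.32 and 12.14 FPKM on the NormMg-LFD and 7.59, 9.82, 10.36, 12.81 and 10.98 FPKM on the LowMg-LFD. On the NormMg-HFD it had 27.69, 24.28, 25.85, 26.14 and 20.88 FPKM, and on the LowMg-HFD 15.77, 16.88, 11.91, 10.06 and 13.4 FPKM. The NormMg-HFD mice stood above the mice of every other group, with the nearest other mouse at 16.88 FPKM. Loxl2 had the smallest adjusted p of the 8 genes for Mg2+ on the HFD (log2 fold change -0.85 ± 0.14, adjusted p = 0.00178), and its mean was 0.545 times as high. At normal Mg2+ it was higher on the HFD (1.04 ± 0.15, adjusted p = 2.09e-05). At low Mg2+ the log2 fold change of the HFD was 0.36 ± 0.14 (adjusted p = 0.0838), and it passed without LowMg-LFD replicate 4 or LowMg-HFD replicate 4 (adjusted p between 0.0249 and 0.0434). Fn1, Postn and Loxl2 were called lower on the LowMg-HFD in all 29 alternatives, and the 6 genes called higher on the NormMg-HFD than on the NormMg-LFD were called in all 29 as well.

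**Figure D2:**
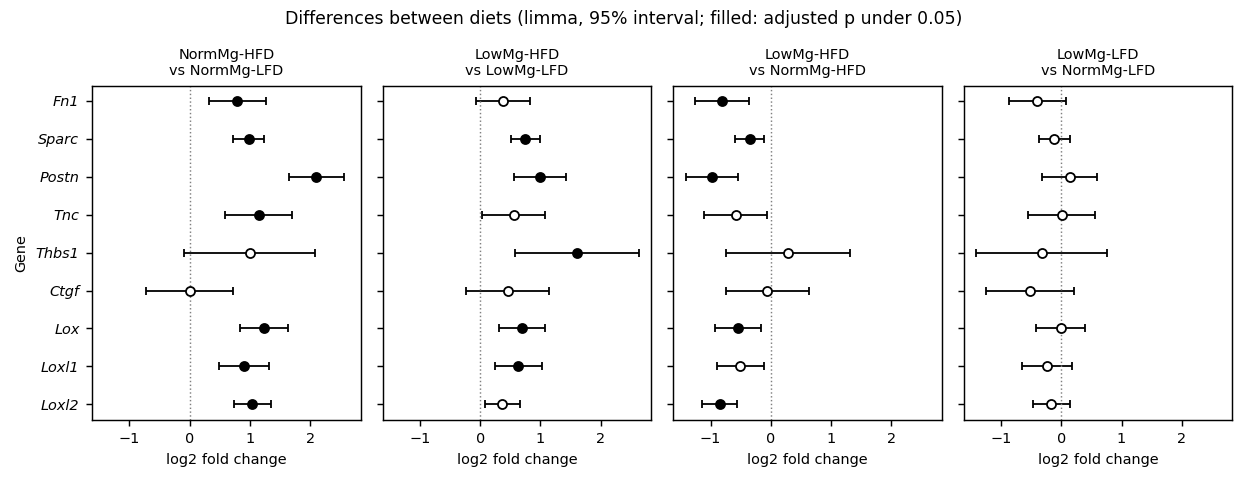
Log2 fold change of each gene (x axes) with its 95% interval for 4 comparisons of diets, from limma on log2(FPKM + 1), filled where the adjusted p was under 0.05; Tnc is from the fit without a filter. In the comparison of LowMg-HFD with NormMg-HFD the filled points are Fn1, Sparc, Postn, Lox and Loxl2, all below 0, and no point is filled for LowMg-LFD against NormMg-LFD.

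Groups without overlap gave a view of single mice, which between the HFD groups differed in part from the calls. Sparc, Postn and Lox were called there but overlapped, and Loxl1 was not called but did not overlap. Between the HFD groups, Fn1, Loxl1 and Loxl2 did not overlap and were lower on the LowMg-HFD, which was so for 9.56% of the 8336 genes tested. Between the normal Mg2+ groups, 7 of the 9 genes did not overlap and were higher on the HFD, against 21.5% of the genes tested. At low Mg2+ this held for Sparc and Postn, against 6.99%, and between the LFD groups for none of the 9 genes, against 0.48% higher and 1.31% lower. Tnc is counted in the 7 and the 9 but is not among the 8336 genes tested, over which the shares were taken.

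The interaction tests whether dietary Mg2+ had another effect with the HFD than with the LFD. None of the 8 genes passed, and 1.25% of all genes did (104 of 8336). That number rested on single mice. It was 0 without NormMg-LFD replicate 2 or 3, LowMg-LFD replicate 5, NormMg-HFD replicate 1, 3 or 4 or LowMg-HFD replicate 3 or 5, it was 482 without LowMg-HFD replicate 2, and 1365 to 1815 genes had an unadjusted p under 0.05 in limma when any 1 mouse was left out. It was also 0 with the replicate number as a block (1576 genes at an unadjusted p under 0.05), 2 without a filter and 347 with quantile normalization. Postn (-1.12 ± 0.30, adjusted p = 0.0553) and Loxl2 (-0.68 ± 0.20, adjusted p = 0.0782) were nearest to the threshold and had an unadjusted p under 0.05. Postn passed when NormMg-HFD replicate 5 or LowMg-HFD replicate 1 or 2 was left out (adjusted p between 0.0266 and 0.0327), and Loxl2 without LowMg-LFD replicate 1 or LowMg-HFD replicate 1 or 2 (adjusted p between 0.0366 and 0.0482). On the FPKM scale, the mean difference between HFD and LFD was 106 FPKM at normal and 33.8 FPKM at low Mg2+ for Fn1, 128 and 40.9 FPKM for Postn, and 13.3 and 3.29 FPKM for Loxl2. The difference at low Mg2+ was thus 31.8%, 32.0% and 24.7% of that at normal Mg2+ for these genes. The share of Fn1 was 19.8% without LowMg-LFD replicate 1 and 46.8% without LowMg-HFD replicate 4. With all mice the share was 65.4% for Sparc, 45.6% for Lox, 48.7% for Loxl1 and 33.8% for Tnc. That of Tnc was 22.0% without LowMg-LFD replicate 3 and 44.2% without LowMg-LFD replicate 2. Thbs1 went the other way, with 26.9 FPKM at normal and 51.4 FPKM at low Mg2+. Ctgf did so too, with -1.25 FPKM at normal and 4.01 FPKM at low Mg2+. Its difference at normal Mg2+ was 2.90 FPKM without NormMg-LFD replicate 4. These shares are descriptions, with no test.

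**Figure D3:**
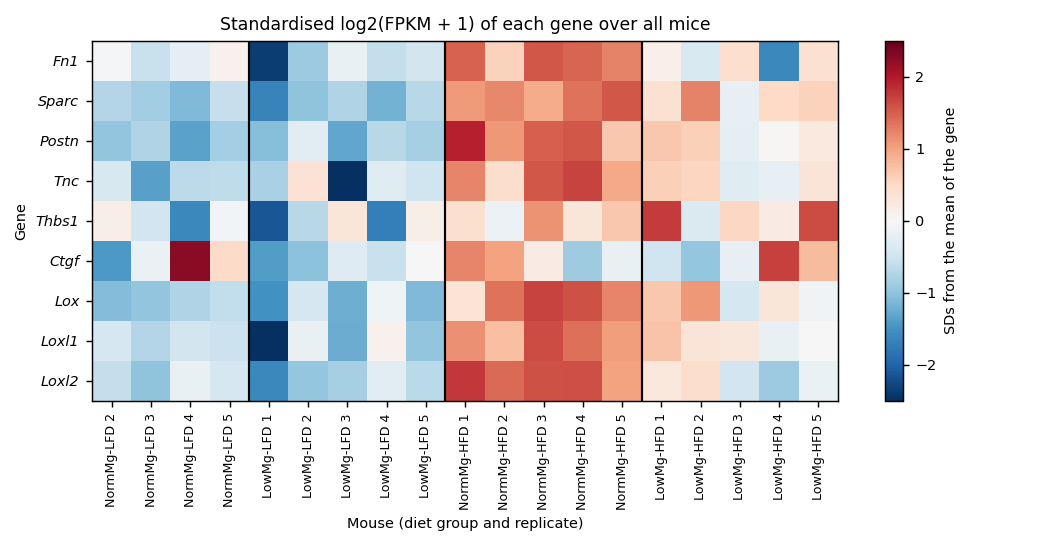
Log2(FPKM + 1) of the 9 genes (rows) in the 19 mice (columns, ordered by group and replicate), each gene scaled to its mean and SD over all mice; red is above and blue below the mean of the gene. The NormMg-HFD mice are red for all genes but Thbs1 and Ctgf, and LowMg-LFD replicate 1 is the lowest of its group for 7 of the 9 genes.

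The profiles of the genes over the mice were compared by the root mean square difference between their standardised log2(FPKM + 1) values, which is 0 for equal profiles. Among the 8 genes tested, Sparc and Lox were the nearest pair (0.461), followed by Lox and Loxl1 (0.482). Ctgf was the farthest from every other gene (1.25 to 1.34), and Thbs1 lay between (0.864 to 1.08 to the genes other than Ctgf). LowMg-LFD replicate 1 was the lowest of its group for 7 of the 9 genes, and NormMg-LFD replicate 3, NormMg-HFD replicate 2 and LowMg-HFD replicate 3 each for 4 genes. NormMg-HFD replicate 3 and LowMg-HFD replicate 1 were each the highest of their group for 4 genes, and no other mouse was the highest or the lowest for more than 3. Of all other tested genes, the nearest to the mean profile of the 8 genes were Selplg (0.210), Itga5 (0.239), Calu (0.244), S100a4 (0.247) and Col6a1 (0.257). Selplg encodes a selectin ligand of leukocytes, Itga5 the alpha subunit of the main fibronectin receptor, and Col6a1 a chain of collagen VI. The gene nearest to each single profile was Cd248 for Fn1 (0.294), Serpinf1 for Sparc (0.223), C5ar1 for Postn (0.224), Rps6ka1 for Lox (0.272), S100a6 for Loxl1 (0.252) and Csf1r for Loxl2 (0.227). Csf1r is among the macrophage markers described below. The profiles run over all mice, so that differences between the diet groups, which many genes share, enter these values. Thbs1 and Ctgf had no gene as near, the nearest being Myl6 (0.510) and Sec14l1 (0.557).

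The collagens on which these enzymes and glycoproteins act moved in the same directions. Of 14 collagen chains tested, 11 were higher and 0 lower on the NormMg-HFD than on the NormMg-LFD (median log2 fold change 0.97), and 10 were lower and 0 higher on the LowMg-HFD than on the NormMg-HFD (median -0.55). Col3a1, a fibrillar collagen, averaged 285 FPKM on the NormMg-LFD, 250.2 FPKM on the LowMg-LFD, 888 FPKM on the NormMg-HFD and 354 FPKM on the LowMg-HFD. It fell on the LowMg-HFD by 1.31 on the log2 scale (adjusted p = 0.000661), more than any of the 8 genes. Col1a1 (-1.22, adjusted p = 0.00178) and Col1a2 (-0.89, adjusted p = 0.00453) were also lower there. The summed FPKM of Lox, Loxl1 and Loxl2 per summed FPKM of Col1a1, Col1a2 and Col3a1 was 6.81% to 10.2% (median 9.03%) in NormMg-HFD mice and 12.1% to 15.9% (median 13.2%) in LowMg-HFD mice. On the LFD it was 10.5% to 14.0% (median 10.9%) at normal and 11.7% to 14.6% (median 12.3%) at low Mg2+. This ratio was formed after the values were seen. NormMg-HFD mice had the most cross-linker transcripts but the fewest per transcript of these collagens, with no overlap with the other groups. However, Col3a1, Col1a1 and Col1a2 were the chains that fell the most between the HFD groups among the 14 tested. The separation depended on that choice. Relative to the summed FPKM of all collagen chains of the list, NormMg-HFD mice overlapped with the mice of each other group.

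Genes of collagen processing were higher on the NormMg-HFD in 11 of 15 tested and lower on the LowMg-HFD in 9 of 15. Pcolce, an enhancer of procollagen cleavage, had a log2 fold change of -0.90 between the HFD groups (adjusted p = 0.00429), and the collagen chaperone Serpinh1 of -0.57 (adjusted p = 0.0358). Among 17 elastic fibre and proteoglycan genes, 7 were higher and 1 lower on the NormMg-HFD, and 8 were lower on the LowMg-HFD. The collagen-binding proteoglycan lumican (Lum) was lower by the most of that list (-1.40, adjusted p = 0.000661). Of 15 matrix receptors, 9 were higher on the NormMg-HFD, and on the LowMg-HFD 5 were lower and 1 higher. The hyaluronan receptor Cd44 averaged 5.58 FPKM on the NormMg-LFD, 54.8 FPKM on the NormMg-HFD and 20.0 FPKM on the LowMg-HFD (-1.53 between the HFD groups, adjusted p = 0.00275).

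Of 17 genes of TGF-beta signalling, 4 were higher and 2 lower on the NormMg-HFD and 3 were lower on the LowMg-HFD, with medians of 0.06 and -0.07 that lay near those of all genes. The ligand gene Tgfb1 was among them (-0.66 between the HFD groups, adjusted p = 0.0138). Of 6 tested YAP and TEAD genes, 2 were higher and 1 lower on the NormMg-HFD, and 1 was higher on the LowMg-HFD. Amotl2, which binds YAP, was lower on the NormMg-HFD than on the NormMg-LFD (-1.19, adjusted p = 6.55e-05) and higher on the LowMg-HFD than on the NormMg-HFD (0.58, adjusted p = 0.0303). Among 9 tested paralogues of the 9 genes, 4 were higher and 1 lower on the NormMg-HFD, and 1 was higher and 1 lower on the LowMg-HFD. Smoc1, a relative of Sparc, averaged 92.8 FPKM on the NormMg-LFD, 40.9 FPKM on the NormMg-HFD and 78.2 FPKM on the LowMg-HFD, and was higher on the LowMg-HFD than on the NormMg-HFD (0.94, adjusted p = 0.00178). Tgfbi, a relative of Postn, was lower there (-0.57, adjusted p = 0.0418). The interaction passed for 5 genes of these and the marker lists, which were Col3a1, Lum, Smoc1, the macrophage marker Adgre1 and Cd47, a receptor of thrombospondin 1 that was named after its values were seen. These calls were lost with the replicate block and when any 1 of the 8 mice given above for the interaction was left out.

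Macrophage markers had the directions of Fn1, Sparc, Postn, Lox and Loxl2. All 8 macrophage markers were higher on the NormMg-HFD than on the NormMg-LFD and all 8 were lower on the LowMg-HFD than on the NormMg-HFD. Their summed level was 459 to 569.9 FPKM on the NormMg-LFD, 352 to 677 FPKM on the LowMg-LFD, 1720.2 to 2579 FPKM on the NormMg-HFD and 569 to 1489 FPKM on the LowMg-HFD, and no marker was at 0 in every mouse. Of 8 markers of stromal progenitors, a main source of matrix in fat, only Gsn changed, which was lower on the NormMg-HFD (-0.58, adjusted p = 0.0104) and higher on the LowMg-HFD than on it (0.47, adjusted p = 0.0448). The summed level of this list was 3366 to 4336 FPKM on the NormMg-LFD, 2522 to 4861 FPKM on the LowMg-LFD, 2509.5 to 2921 FPKM on the NormMg-HFD and 2900.2 to 4348 FPKM on the LowMg-HFD. Gsn, at a mean of 2414 to 3636 FPKM in the 4 groups, makes up most of that sum. Of the other 7 markers, 6 (Ly6a, Cd34, Pi16, Cd55, Pdgfra and Thy1) had their highest group mean on the NormMg-HFD, and the median log2 fold change of the list was 0.28 for the HFD at normal Mg2+ and -0.28 for low Mg2+ on the HFD. Of 7 tested markers of myofibroblasts and mural cells, 1 was higher and 3 were lower on the NormMg-HFD, and Cspg4 was lower on the LowMg-HFD (-0.61, adjusted p = 0.0475). The myofibroblast gene Acta2 averaged 69.9 FPKM on the NormMg-HFD and 89.6 FPKM on the LowMg-HFD (adjusted p = 0.331). Of 8 adipocyte markers, 1 was higher and 4 were lower on the NormMg-HFD, and 3 were higher on the LowMg-HFD. Of 6 endothelial markers, 1 was lower on the NormMg-HFD and 1 was higher on the LowMg-HFD. Of the mesothelial markers only Krt19 was tested, and it was lower on the NormMg-HFD (-1.86, adjusted p = 0.00278). The part of these cell types in the levels of the 9 genes was not tested.

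**Figure D4:**
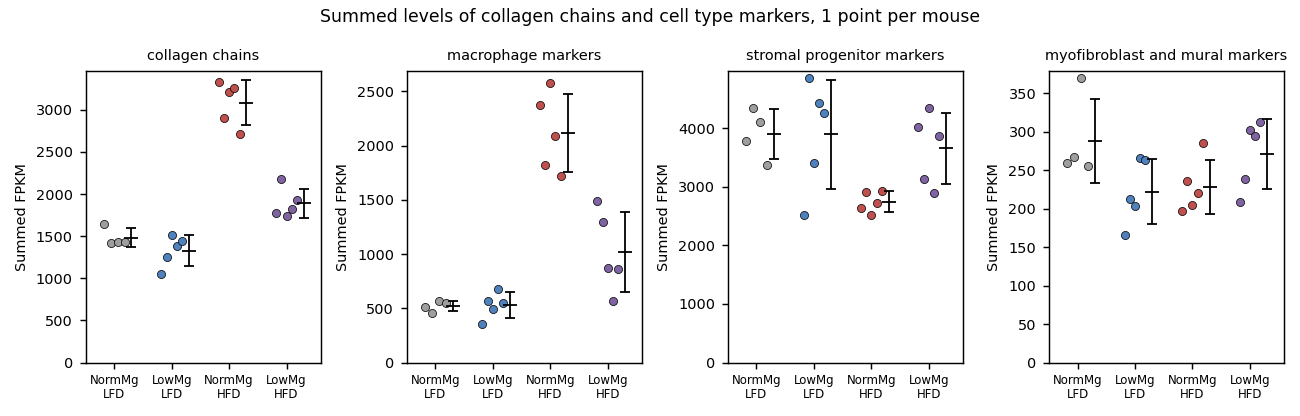
Summed FPKM (y axes, from 0) of 15 collagen chains and of 8 markers each of macrophages, stromal progenitors, and myofibroblasts and mural cells in the 4 diet groups, with 1 point per mouse, the mean as a dash and the SD as the bar. Collagen chains and macrophage markers are highest in the 5 NormMg-HFD mice, while the sum of the stromal progenitor markers, which is mostly Gsn, is at 2509.5 to 2921 FPKM there.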

How the data were processed

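RNA sequencing of eWAT gave 1 library for each of 19 mice. The authors mapped clean reads to the mouse transcriptome (GRCm38/mm10) with HISAT and Bowtie2 and deposited the FPKM of each gene from RSEM 1.2.31. The deposited mapping summary gives the reads of each mouse and the percent of reads mapped. FPKM are not counts, so that tests on counts were not run and the error of a value is the spread between mice. The counting by strand is not given in the sources used here, so that antisense transcripts cannot be told apart. Of 24238 genes, 1 was dropped because a value could not be read as a number, and 26 symbols that had become dates were restored from the gene identifiers. Mice were grouped by their labels.

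Values were analysed as log2(FPKM + 1), with a pseudocount of 1, so that fold changes of low genes are understated. Genes were kept with a mean over 8 in a group and a value over 8 in at least 4 of its mice (8336 genes, 8 of the 9 genes described). These thresholds are taken from the study and were used here on FPKM, with the log2 scale as an alternative. All 4 groups entered 1 linear model in limma 3.58.1 under R 4.3.3, with the prior variance trended on intensity, which gave the 4 comparisons and the interaction. Two-sided p values were corrected over all tested genes after Benjamini and Hochberg, with a threshold of 0.05. The fit was tested on simulated data. Tables and figures were made with Python 3.11.15, pandas 2.3.3 and matplotlib 3.10.9.

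The 9 genes and the gene lists were chosen with earlier results of these data known. Named beside them are, of each pathway list, up to 3 genes with the largest change of Mg2+ on the HFD and up to 3 of the HFD at normal Mg2+, the 5 genes nearest to the mean profile, the nearest gene of each gene, and any marker, except for 1 gene not reported here. The alternatives were no filter or one of FPKM 1, a pseudocount of 0.1, quantile normalization, median centring, the replicate number as a block, no intensity trend, only the groups compared, leaving out each mouse, 18 samples (without LowMg-HFD replicate 4) with log2(FPKM + 1) over 3 as the filter, and, added after the data were seen, leaving out both mice that stood apart.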

Additional observations from a re-analysis of the deposited data

How the results depend on the processing

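The count of genes higher on the NormMg-HFD than on the NormMg-LFD (6) and the count of 0 between the LFD groups stayed within 1.5 times under every alternative run. Between the HFD groups the count of 5 was 3 without a filter, with a filter of FPKM 1, with median centring and with 18 samples and log2(FPKM + 1) over 3, and 3 to 6 when 1 mouse was left out. Between the low Mg2+ groups the count of 5 was 3 without a filter, with quantile normalization and with only the groups compared, and 3 to 7 when 1 mouse was left out. For the interaction, 1 gene passed with median centring, 2 with quantile normalization, and 0 to 2 when 1 mouse was left out, and a fit of only the groups compared cannot give it. With a filter of FPKM 1, 3 of the 5 genes nearest to the mean profile remained. The setting of 18 samples left out LowMg-HFD replicate 4 and tested 8808 genes, as many as its filter keeps without LowMg-HFD replicate 1, and the labels do not say which LowMg-HFD mouse the study left out. It called 7 genes between the low Mg2+ groups. The cause of these changes was not tested.

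The sign changed for 4 log2 fold changes, none of them called in any setting. That of Ctgf between the HFD groups was 0.00046 with median centring and -0.27 to 0.10 without 1 mouse, and that of Ctgf for the HFD at normal Mg2+ was 0.0077 with a pseudocount of 0.1 and -0.32 to 0.36 without 1 mouse. On the LFD, that of Lox was 0.054 with median centring, 0.073 with quantile normalization and -0.12 to 0.083 without 1 mouse, and that of Thbs1, -0.33 with all mice, was -0.70 to 0.012 without 1 mouse.

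With the replicate number as a block, the counts of genes called were 5, 0, 6, 5 and 0, as without it, and only the signs of Lox on the LFD (0.046) and of Ctgf for the HFD at normal Mg2+ (0.018) differed. The labels give only a number, and of 18 pairs of mice with the same number 4 had a correlation of deviations over 0.1 (-0.183 to 0.339), so that the numbers were not taken to pair the mice. FPKM hold no counts, and the counting error of low genes such as Tnc was not estimated.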

Other observations

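In none of the 36 groups formed by 9 genes and 4 diets did 1 mouse stand apart from the others by Dixon's test at the 95% level. With 4 or 5 mice in a group, this test detects only a mouse very far from the others. Ctgf in NormMg-LFD replicate 4, at 25.83 FPKM against at most 12.57 FPKM in the rest of its group, did not pass it.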
